A study of Mus musculus with 6 samples.

Results

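The Schlafen genes are a mouse gene family that takes its name from the German word for sleeping. The members examined here were Slfn1, Slfn2, Slfn3, Slfn4, Slfn5, Slfn8 and Slfn9, chosen by gene name, and all 7 were found among the 55357 genes of the deposited expression table. Their transcripts were compared between 3 cultures of mouse cortical astrocytes transfected with BRAF K499E (KE) and 3 non-transfected cultures (NT), harvested at 48 hours. BRAF KE is a gain-of-function kinase mutant. For immunostaining of such astrocytes, the paper describes a plasmid with FLAG-tagged BRAF KE under the CMV promoter, which is not specific to astrocytes. It was given together with a GFP plasmid there, and the paper's RNA sequencing passage names no construct. NT cultures received no plasmid, and no culture with an empty plasmid or BRAF WT is among these samples, so the mutant and the transfection itself cannot be told apart. According to the methods, astrocytes were prepared from C57BL/6 embryos on embryonic day 18 and kept in a medium that contains HB-EGF. The labels do not say whether the 3 cultures of a group came from separate preparations, so the p-values measure the spread between cultures, which may be technical.

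Schlafen genes are best known from lymphocytes and myeloid cells, where they have been linked to cell quiescence, and most mouse members are induced by type I interferon. Interferon receptors signal through JAK kinases to transcription factors that bind the interferon-stimulated response element upstream of their target genes. The proteins are usually divided by length into short members (Slfn1 and Slfn2), intermediate members (Slfn3 and Slfn4) and long members with a helicase-like region (Slfn5, Slfn8 and Slfn9). They share an N-terminal region, and several members bind or cut tRNA.

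BRAF KE-transfected cultures had more transcript of the 3 long members and of Slfn2. Slfn8 rose 4.16-fold, Slfn5 1.95-fold, Slfn2 1.88-fold and Slfn9 1.39-fold. With 3 cultures a group, the exact test used for differences between members could not reach an adjusted p under 0.05 for any pair. Slfn3, at a low level in both groups, was 1.95-fold lower in KE, a difference that was called in the main comparison but not when most single cultures were left out. Slfn1 and Slfn4 were too low to be tested. Folds are on the scale of log2(normalized count + 1), which understates the change of low genes, and a normalized count is a gene's read count divided by the culture's size factor. Of the 7 members, 5 had a mean of at least 10 normalized counts and were tested with limma, and 4 of these rose and 1 fell at an adjusted p under 0.05. Of all 15280 tested genes 51.3% were called. In the same comparison 25.3% of genes were called higher in KE and 26.0% lower, so a call alone does not set a gene apart in these cultures. A rise with a log2FC above 1, as that of Slfn8, was called in 4.74% of the tested genes.

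The approximate depth was 24500000 to 34100000 reads per culture, estimated from the worth of 1 read, and KE replicate 2 was the shallowest. Braf, the transfected gene, was 34933 to 40978 normalized counts in KE and 811 to 946 in NT, in accord with the labels of all 6 cultures. Astrocyte markers were abundant in both groups: their sum over 12 genes was 195700 to 201800 in KE and 143600 to 152400 in NT, although Gjb6 was near 0 and S100b was low. Of the 11 tested, 7 rose, 2 fell (Gja1 and Fgfr3) and 2 were not called. Markers of microglia and macrophages were also present, and 21 of the 23 tested were lower in KE. Their sum over 24 genes was 12180 to 15280 in KE and 71280 to 89720 in NT. Of 8 tested genes of the oligodendrocyte lineage, 7 were also lower in KE and 1 was not called, with a median log2FC of -0.65. Fewer cells of a type and less RNA per cell cannot be told apart in such bulk samples.

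The 7 members lie in 1 cluster on chromosome 11 of GRCm39, between 82842100 and 83109101, a stretch of 267.0 kb that also holds Slfn10-ps, pseudogenes and noncoding RNAs. The 250 bases before the RefSeq transcript start were read for each member and searched on both strands for 3 motifs: the interferon-stimulated response element (GAAA, 2 bases of any kind, then GAAA), the gamma-activated site (TTCNNNGAA) and the AP-1 site (TGANTCA). The response element was found before Slfn5, Slfn8 and Slfn9, the 3 long members, against 3.0% of 32535 promoters of other genes. It was not found in the same window of Slfn14, a Schlafen gene beyond Slfn3. Those of Slfn8 and Slfn9 have the same letters, GAAAACGAAA on the minus strand of the printed sequence, from 48 to 39 bases before the start of Slfn8 and from 45 to 36 before that of Slfn9. RefSeq has a second start for Slfn8, from which the same match lies 136 to 127 bases away. Slfn5 has GAAAAAGAAA from 155 to 146 bases before its start. The 250 bases of Slfn8 and Slfn9 are 80.2% identical, while the next most alike pair of members, Slfn3 and Slfn8, reaches 53.4%. The sequences of the 4 members that rose are shown from 5′ to 3′ on the strand of the gene, with the response element in capitals, and for Slfn2 with a shared word described after them.
Slfn8: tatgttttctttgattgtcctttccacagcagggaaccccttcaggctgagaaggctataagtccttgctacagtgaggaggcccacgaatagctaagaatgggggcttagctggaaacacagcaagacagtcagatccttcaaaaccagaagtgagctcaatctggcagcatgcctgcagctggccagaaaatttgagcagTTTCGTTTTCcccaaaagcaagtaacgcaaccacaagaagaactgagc
Slfn9: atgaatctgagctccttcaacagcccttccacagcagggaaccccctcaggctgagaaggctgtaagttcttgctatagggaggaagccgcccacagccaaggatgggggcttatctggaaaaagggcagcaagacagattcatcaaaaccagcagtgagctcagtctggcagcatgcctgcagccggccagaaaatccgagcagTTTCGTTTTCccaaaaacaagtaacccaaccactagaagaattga
Slfn5: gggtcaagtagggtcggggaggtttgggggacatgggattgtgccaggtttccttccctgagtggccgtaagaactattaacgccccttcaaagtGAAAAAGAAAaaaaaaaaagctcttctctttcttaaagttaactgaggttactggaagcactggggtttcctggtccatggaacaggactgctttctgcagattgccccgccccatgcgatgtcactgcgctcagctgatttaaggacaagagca
Slfn2: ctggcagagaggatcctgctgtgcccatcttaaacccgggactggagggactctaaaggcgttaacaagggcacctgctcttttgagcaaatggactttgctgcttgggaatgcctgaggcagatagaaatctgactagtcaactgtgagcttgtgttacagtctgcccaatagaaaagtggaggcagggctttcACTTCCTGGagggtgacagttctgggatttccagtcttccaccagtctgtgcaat
On GRCm39 these windows are chr11:82911637-82911886 on the minus strand for Slfn8, chr11:82882657-82882906 on the minus strand for Slfn9, chr11:82842678-82842927 on the plus strand for Slfn5 and chr11:82955688-82955937 on the plus strand for Slfn2. They come from the RefSeq promoter table of GRCm38.p6 and were placed by an exact match to GRCm39, which each met once on the chromosome. The RefSeq start of Slfn2 lies 329 bases from the nearest start in Gencode vM39, and that of Slfn8 33 bases, so the windows depend on the annotation. The windows of Slfn2 and Slfn5 lie within these genes as Gencode vM39 draws them, and sequence upstream of the 2 genes was not searched.

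No match to the response element was found in this window of Slfn1, Slfn2, Slfn3 or Slfn4, which says nothing of sequence outside it. These 4 short and intermediate members share a different word, ACTTCCTGG, which was noticed after the sequences had been read. It lies from 55 to 47 bases before the start of Slfn2, 74 to 66 before Slfn1, 73 to 65 before Slfn4 and 42 to 34 before Slfn3, and occurs in 0.7% of the other promoters. Its core TTCC is read on the other strand as GGAA, the core of the sites that ETS factors bind. Slfn3 is shown as the member that was lower in KE, with the shared word in capitals, from chr11:83081906-83082155 on the plus strand of GRCm39.
Slfn3: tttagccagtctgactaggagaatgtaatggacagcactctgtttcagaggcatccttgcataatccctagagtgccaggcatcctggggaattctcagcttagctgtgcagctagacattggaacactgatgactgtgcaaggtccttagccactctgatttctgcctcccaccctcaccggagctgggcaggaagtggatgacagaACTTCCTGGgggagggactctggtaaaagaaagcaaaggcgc
An AP-1 match was found before Slfn4, from 34 to 28 bases from its start, and before Slfn14, from 134 to 128 bases, where 6.7% of other promoters have one. The gamma-activated site was found before 0 of the 7 members and in 7.0% of other promoters. For scale, 18 of 24 well-known interferon-induced genes outside the family had a promoter in the table, and 7 of these 18 (38.9%) held the response element in the same window. A match describes the letters and was not tested for binding.

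**Figure D1:**
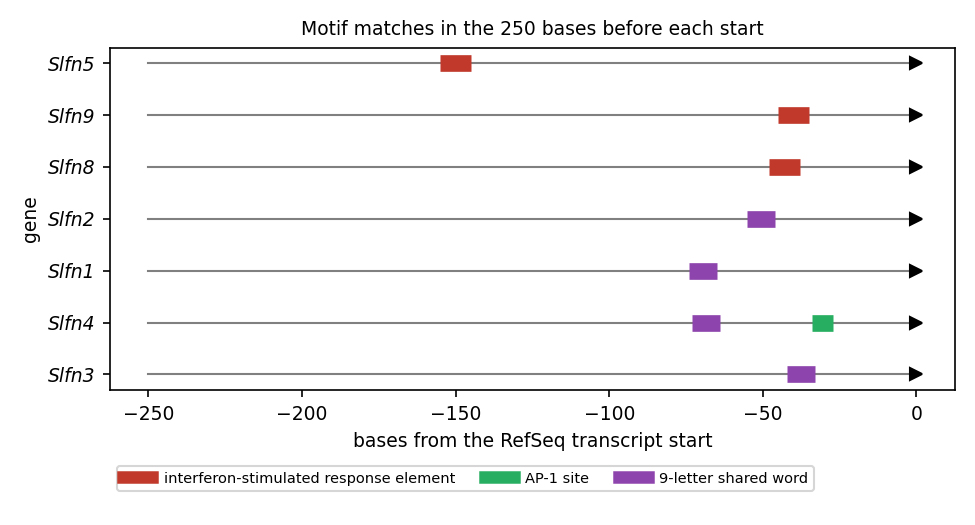
Motif matches in the 250 bases before the RefSeq start of each Schlafen member, with the distance from the start in bases on the x axis and 1 gene per line. The interferon-stimulated response element is in the 3 upper lines (Slfn5, Slfn9 and Slfn8), the shared word in the other 4, and the AP-1 site in Slfn4.

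Among the long members, Slfn8 (ENSMUSG00000035208), which has been studied in T cells, had normalized counts of 3267, 3141 and 3489 in KE replicates 1 to 3, against 852, 1013 and 575 in NT replicates 1 to 3. Every KE culture was above every NT culture. KE averaged 3299 ± 176 (SD, n = 3) against an NT mean of 814 ± 222 (SD, n = 3), and the log2FC was 2.06 (standard error 0.16, 95% interval 1.70 to 2.41, adjusted p = 1.55e-06 by limma). By log2FC, Slfn8 ranked 195 of the 15280 tested genes, the highest rank among the members. The gene lies on the minus strand from 82892984 to 82911669.
Slfn5 (ENSMUSG00000054404), a nuclear protein studied as a regulator of transcription, was 1122, 1232 and 1414 in KE and 640, 767 and 539 in NT. The groups did not overlap, and the log2FC was 0.96 (standard error 0.13, adjusted p = 8.18e-05 by limma). It lies on the plus strand from 82842100 to 82855666, at the proximal end of the group. Its antisense transcript Slfn5os was at or near 0 in the 6 cultures.
Slfn9 (ENSMUSG00000069793) was 5157, 4810 and 5498 in KE and 3907, 3586 and 3617 in NT. The groups were separate, with little spread in either, and the rise was the smallest of the 4, with a log2FC of 0.48 (standard error 0.06, 95% interval 0.33 to 0.62, adjusted p = 0.000111 by limma). It lies between Slfn5 and Slfn8 on the minus strand, from 82868552 to 82882656.

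Of the short members, Slfn2 (ENSMUSG00000072620) is required for the quiescence and survival of T cells and binds tRNA. Its normalized counts were 3788, 3787 and 3745 in KE and 2041, 2390 and 1650 in NT. The 3 KE cultures lay closer together than those of any other tested member, with a coefficient of variation of 0.652%, against 18.3% in NT. The log2FC was 0.91 (standard error 0.11, 95% interval 0.68 to 1.15, adjusted p = 3.87e-05 by limma). Slfn2 lies on the plus strand from 82955609 to 82961504. Slfn10, which the table names Slfn10-ps, overlaps it on the opposite strand in Gencode vM39, and the kit marks strand, but how strand was used in counting is not given in the sources used here.
Slfn1 (ENSMUSG00000078763), the first member described, in which growth arrest of thymocytes was studied, was 1.806, 5.002 and 5.432 in KE and 8.912, 5.172 and 5.728 in NT. These values correspond to a handful of reads per culture, the groups overlap, and no difference was detectable at this depth. With no filter on low genes, limma gave a log2FC of -0.64 with an adjusted p of 0.407.

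The intermediate members were rare. Slfn3 (ENSMUSG00000018986), known from T cells and the intestinal epithelium, was 13.3, 17.1 and 14.2 in KE and 36.1, 17.8 and 40.3 in NT. KE was lower in each culture, but KE replicate 2 and NT replicate 2 were nearly equal. The log2FC was -0.96 (standard error 0.35, 95% interval -1.73 to -0.19, adjusted p = 0.0393 by limma). Leaving out NT replicate 3 gave -0.74 with an adjusted p of 0.143, and without NT replicate 2 the log2FC was -1.31 with an adjusted p of 0.00724. The call was also lost when NT replicate 1 or any KE culture was left out, with adjusted p from 0.0512 to 0.129, and with no filter on low genes (adjusted p 0.0724). Slfn3 is on the plus strand from 83082123 to 83109101.
Slfn4 (ENSMUSG00000000204), which macrophages induce in response to interferon and bacterial products, was 3.66, 7.59 and 6.41 in KE and 4.01, 1.05 and 6.29 in NT. The groups overlap, and limma with no filter on low genes gave a log2FC of 0.66 with an adjusted p of 0.44.

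**Figure D2:**
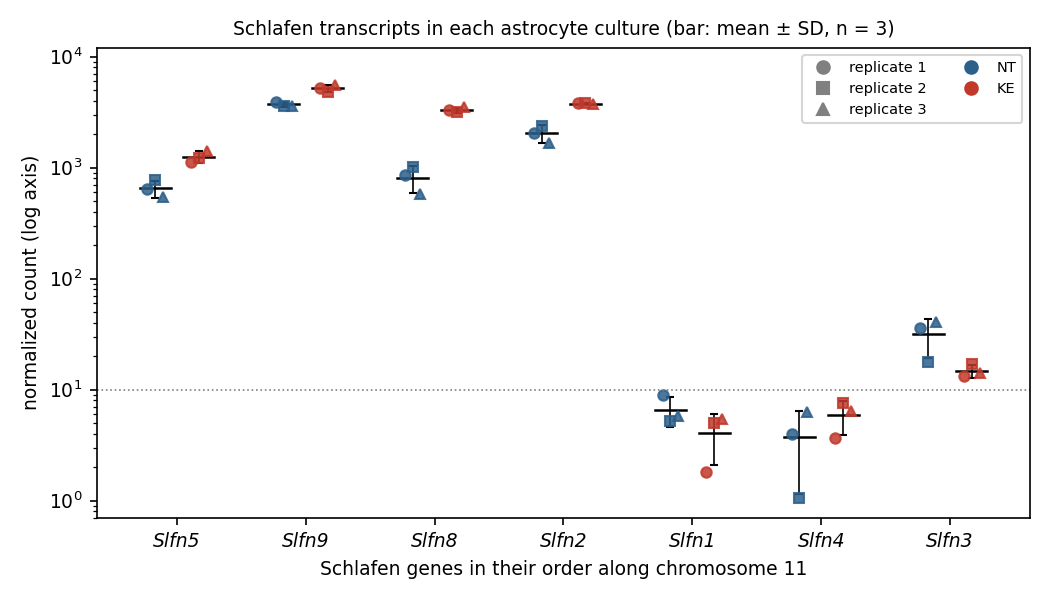
Normalized counts of the 7 Schlafen members in each culture on a log axis, with NT in blue, KE in red, a symbol per replicate, and bars for the mean ± SD (n = 3). Slfn5, Slfn9, Slfn8 and Slfn2 lie above 500 in every culture with KE above NT, while Slfn1 and Slfn4 lie under the dotted line at the filter of 10.

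The groups did not overlap in the 5 tested members, as in 59.9% of all tested genes. Responses of members next to each other in the order of log2FC were compared through the log2 ratio of their counts in each culture, in 4 pairs. The ratio of Slfn8 to Slfn5 was 1.30 to 1.54 in KE and 0.09 to 0.41 in NT, a difference of 1.09 without overlap. The exact permutation p was 0.1, the smallest that 3 against 3 cultures can give, and 0.133 after adjustment. The ratio of Slfn2 to Slfn9 also did not overlap, with a difference of 0.44 and the same exact p. The ratio of Slfn5 to Slfn2 overlapped between groups, with a difference of 0.05 (exact permutation p = 0.8) that turned to -0.047 without KE replicate 3. Slfn9 and Slfn3, which moved in opposite directions, differed by 1.44 without overlap. Slfn8 and Slfn9, the pair with the most alike upstream sequences, was added after the data were seen. Their ratio was -0.66 to -0.61 in KE and -2.65 to -1.82 in NT, a difference of 1.58 that is given without a test.

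Members of a recent gene family share sequence, which makes the division of reads between them uncertain. In Gencode vM39, 26.5% of the 31-base words of Slfn8 transcripts also occur in transcripts of another Schlafen gene, most often Slfn9 (19.0%), and 17.8% of those of Slfn9 do. Over 75 bases the shares fall to 6.9% and 5.3%. For Slfn2 6.8% of the 31-base words were shared, and for Slfn5 0.0%. With genes outside the family, Slfn5 shared 5.5%, Slfn9 4.5%, Slfn2 4.2% and Slfn8 0.3%. Slfn3 shared 8.3% with other Schlafen genes and 13.3% with genes outside the family. The part of such shared reads in the values was not tested.

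Levels of different members were compared per kb of annotated exon, since long transcripts give more reads. The length counts every annotated exon of a gene rather than the transcripts present, so the order and the shares depend on it. On this scale Slfn2 was highest, with 1890 ± 12.3 (SD, n = 3) for the KE cultures against 1020 ± 186 (SD, n = 3) for NT. In NT it was followed by Slfn9 (559 ± 26.7), Slfn8 (197 ± 53.7) and Slfn5 (100 ± 17.6), and neighbours in this order did not overlap. In KE, Slfn8 was 800 ± 42.7 and Slfn9 778 ± 51.9, and their cultures overlapped, at 762 to 846 and 726 to 829. Slfn5 followed at 194 ± 22.8. Slfn1, Slfn3 and Slfn4 had at most 6.10 per kb in any culture. Before division by length, Slfn9 had the highest mean normalized count of the members in KE (5155) and in NT (3703).
Summed over the 7 members, the level per kb was 3648, 3584 and 3779 in KE and 1930, 2110 and 1606 in NT, a ratio of means of 1.95. Slfn2 held 49.7% to 53.0% of the sum in KE and 51.5% to 56.8% in NT, and Slfn5 a steady part of it (5.28% ± 0.516 and 5.31% ± 0.267, SD, n = 3). For Slfn8 the share in KE was 21.8% ± 0.572 (SD, n = 3), against 10.3% ± 1.51 (SD, n = 3) in NT, and that of Slfn9 21.2% ± 0.863 and 30.1% ± 4.18. The level of Slfn9 itself was higher in KE, so its smaller share goes with the larger rise of the others.

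**Figure D3:**
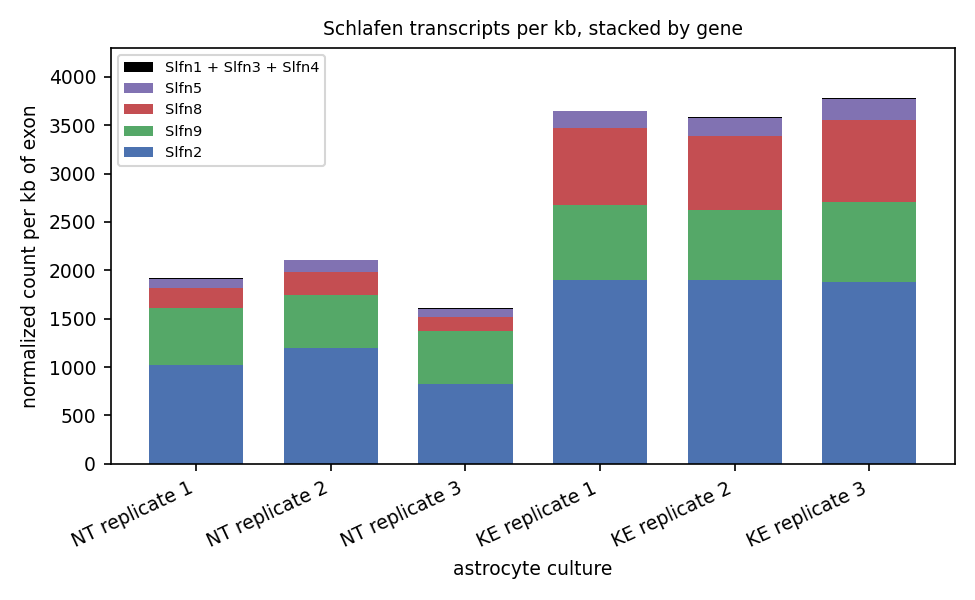
Normalized count per kb of exon in each culture, stacked by Schlafen gene. The sum is 1606 to 2110 in NT and 3584 to 3779 in KE, and the segment of Slfn8 takes 8.68% to 11.6% of the NT columns and 21.2% to 22.4% of the KE columns.

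The genes around the members were read beside them. Of 35 further genes of the expression table that the annotation places within the cluster or up to 200 kb from it, 14 were tested. Of these 14, 2 were called higher, 3 lower and 9 neither, against 25.3% higher and 26.0% lower among all tested genes. Rad51d, which acts in DNA repair, was among those that rose (log2FC 0.30). The largest fall, -2.82 (standard error 0.39, adjusted p = 0.000117 by limma), was that of AI662270, a long noncoding RNA on the plus strand beyond Slfn3 that Gencode vM39 names Slfnlnc. It averaged 5.65 ± 3.14 (SD, n = 3) in KE against an NT mean of 43.1 ± 6.14 (SD, n = 3). Slfn10-ps, which starts within Slfn2 on the opposite strand and ends before Slfn8, averaged 132 ± 36.9 (SD, n = 3) in KE against an NT mean of 127 ± 31.1 (SD, n = 3). Its log2FC was 0.05 (95% interval -0.47 to 0.57, adjusted p = 0.882 by limma), and 27.4% of its 31-base words occur in other Schlafen genes. Slfn14 was at 0 in all but 1 culture, where it was 0.989.

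**Figure D4:**
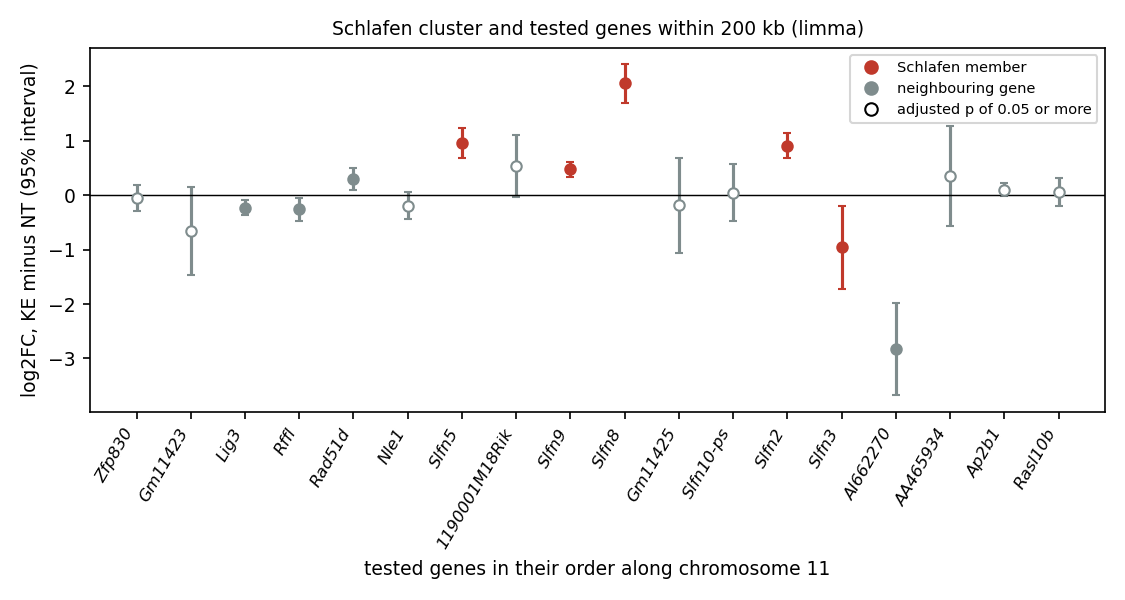
log2FC (KE minus NT) with 95% intervals from limma for tested genes of the Schlafen cluster and up to 200 kb on either side, in their order along the chromosome, with 1 neighbouring gene not shown. Slfn5, Slfn9, Slfn8 and Slfn2 lie above 0, Slfn3 below, and the neighbouring genes in grey lie between -0.65 and 0.54 apart from AI662270 at -2.82.

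Schlafen genes were set beside the pathway that is known to induce them. Of 14 genes of type I interferon signalling, 11 were higher in KE, 2 were lower and 1 was not called, with a median log2FC of 1.09. Stat2 (1.68) and Irf9 (0.87), whose products take part in binding the response element, were among those that rose. Ifnb1, the gene of interferon beta, is listed at 0 in the 3 NT cultures and had a mean of 222 ± 20.5 (SD, n = 3) in KE. Of the receptor genes, Ifnar2 rose (0.51) and Ifnar1 fell (-0.27), and of the feedback inhibitors Usp18 (2.82) and Socs1 (1.31) rose and Socs3 (-0.50) fell. Of the 24 interferon-induced genes outside the family, 24 rose, with a median log2FC of 2.39 and a range from 0.99 (Eif2ak2) to 4.64 (Mx2), while the median over all tested genes was 0.00183. This list and the marker lists were chosen with earlier results of these data known, so their counts are descriptive only. Slfn8, at 2.06, lay below the median of the interferon-induced list, and Slfn9 lay below its smallest rise. Slfn5 (0.96, standard error 0.13) and Slfn2 (0.91, standard error 0.11) were close to that smallest rise (standard error 0.07), and these gaps are within the errors.

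NT cultures differed among themselves in the same members. NT replicate 2 was the highest and NT replicate 3 the lowest for Slfn8, Slfn5 and Slfn2. Of the 8866 tested genes with a mean of at least 500, 16.1% had this order, near an equal share of all possible orders. The coefficient of variation over the NT cultures was 27.2%, 17.6% and 18.3% for these members and 4.77% for Slfn9, where the median of those 8866 genes was 5.13%. In KE it was 5.34%, 11.8% and 0.652%, against a median of 5.62%. The interferon-induced list stood in the same order in NT, with medians of 0.12, 0.19 and -0.35 on the log2 scale relative to the NT mean in replicates 1, 2 and 3. Microglia and macrophage markers had medians of 0.09, 0.08 and -0.17 there. Without NT replicate 3, the log2FC was 1.83 for Slfn8, 0.83 for Slfn5 and 0.77 for Slfn2, and without NT replicate 2 it was 2.23, 1.09 and 1.04. The other members had other orders in NT. Slfn9 and Slfn1 were highest in replicate 1, Slfn3 and Slfn4 in replicate 3, and all of these were lowest in replicate 2.

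Because Schlafen genes are known from leukocytes, markers of those cells were read beside them. While Slfn8, Slfn5, Slfn2 and Slfn9 rose, the 23 tested markers of microglia and macrophages had a median log2FC of -3.31. The receptor genes Cx3cr1 and Csf1r had log2FC of -3.97 and -3.46, and Sall1 (0.03) and Cd14 (0.04) were not called. Siglech was at 0 throughout. Slfn3 and AI662270 moved in the direction of these markers, and the part of such cells in their values was not tested. Of 12 T cell markers, 6 were at 0 in the 6 cultures, Cd3d, Cd3e, Cd3g and Cd8a among them, and the sum of the list was 103 to 162 in KE and 41.9 to 87.8 in NT. The T cell kinase gene Lck was the only one of the list above the filter and rose (log2FC 1.64). Of 10 neutrophil markers, 5 were at 0, Ly6g and S100a9 among them, and the sum was 28.0 to 34.3 in KE and 203 to 231 in NT, most of it from Csf3r.

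**Figure D5:**
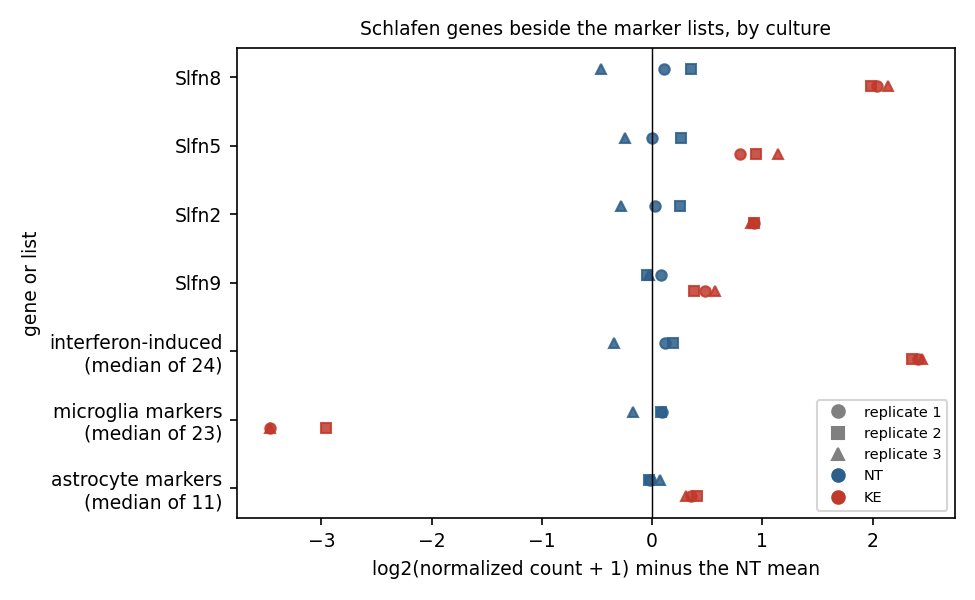
log2(normalized count + 1) in each culture relative to the NT mean for 4 Schlafen members, and the median of the same quantity over the lists of interferon-induced genes, microglia and macrophage markers and astrocyte markers. The KE cultures lie at 1.99 to 2.14 for Slfn8, at 2.36 to 2.45 for the interferon-induced list, at -3.47 to -2.96 for the microglia and macrophage markers and at 0.31 to 0.41 for the astrocyte markers.

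The genes most like each member were found by the root mean square difference of log2 values, centred over the 6 cultures, among 12068 other tested genes with a mean of at least 100. Over so few cultures this likeness is mostly the size of the difference between groups. Nearest to Slfn8 was Cd274, the gene of the checkpoint ligand PD-L1 (difference 0.055, log2FC 2.06). Nearest to Slfn2 was Ccl2, a chemokine that attracts monocytes (0.059, log2FC 1.00), and nearest to Slfn5 was Mxd1, an antagonist of Myc (0.085, log2FC 0.97). Ccl2, Cd274 and Mxd1 were also lowest in NT replicate 3 and highest in NT replicate 2, as Slfn2, Slfn8 and Slfn5 were. The NT cultures entered the measure by which these genes were picked, so the shared order is no further likeness. Slfn9 was most like Ccng1, which encodes cyclin G1 (0.017), Steap1 (0.029) and Mmut (0.029), each with a log2FC of 0.47 or 0.48. Slfn3 had no close match, the nearest being Cd38 (0.225, log2FC -0.97).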

How the data were processed

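RNA from 6 cultures was sequenced with a stranded mRNA kit. The authors deposited a normalized signal for 55357 genes, gene counts divided by DESeq2 size factors. The submitters' processing notes name Trim Galore, STAR, Salmon and DESeq2, with GRCh38 as the build. The methods describe the same tools for hippocampus and spheroids, and give GRCm39 with Gencode vM28 for mouse. The identifiers are mouse, and 54749 of them were found in Gencode vM39 on GRCm39, which gave positions and exon lengths. Batches mentioned in the methods are not named for these samples and were not modelled. In each culture the most frequent low value was taken as the worth of 1 read, and since at most 77.6% of low values came within 0.1 of whole multiples, whole reads were not recovered, no count test was run, and depth is approximate. Normalization evens out totals, so intervals rest on the spread between cultures.

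The log2(normalized count + 1) was fitted over the whole table with limma 3.58.1 in R 4.3.3, with a variance trend and group as the factor, for the 15280 genes whose mean reached 10, with two-sided p-values and Benjamini-Hochberg adjustment. Exact permutation tests used scipy 1.17.1. The fit was tested on simulated data. Promoters came from the RefSeq table of GRCm38.p6, where 7 of 7 members matched by symbol, and were aligned with Biopython 1.88. Protein sequences were not used here, and some genes are not reported here. The members and lists were chosen with earlier results of these data known. Genes named are the members, other Schlafen rows, Braf, genes of the lists, genes within 200 kb of the cluster and the genes most alike. Alternatives were other pseudocounts (0.5 and 5), filters and scalings, limma without the trend, the replicate number as a block, and leaving out each culture.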

Additional observations from a re-analysis of the deposited data

How the results depend on the processing

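Across 175 recomputed values, 159 matched the reported one in sign and call (counts to within 1.5 times). Slfn2, Slfn5, Slfn8 and Slfn9 were called higher in KE under every alternative listed, with adjusted p of at most 0.00411 by limma. The exceptions concern Slfn3 and 1 pair. With no filter on low genes, Slfn3 had a log2FC of -0.96 (adjusted p = 0.0724). A replicate block gave -0.96 as well (adjusted p = 0.0583). Without 1 culture at a time the log2FC was -1.31 to -0.74, and over all its alternatives the adjusted p was 0.00724 to 0.143. The cause was not tested. The number of members called lower by limma was therefore 0 with no filter and 0 with the block, where 1 member had an unadjusted p under 0.05, and 0 to 1 when a culture was left out. With a mean of at least 50 it was 0, also at an unadjusted p, since Slfn3 was not tested. The difference between Slfn5 and Slfn2 ranged from -0.05 to 0.13 when a culture was left out, and was -0.047 without KE replicate 3.

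Same-numbered KE and NT cultures deviated from their group means together with r of 0.059 to 0.066 across genes, and each culture correlated best with its own number. This likeness is weak and does not settle whether the cultures were prepared in pairs, so the main fit had no block. The block called 8046 genes against 7844 without it, and changed no call of a member other than Slfn3. Slfn1 and Slfn4, at 1.05 to 8.91 normalized counts, were under the filter, and a difference was not detectable at this depth.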
